A study of Mus musculus with 18 samples.

Results

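Granule neuron progenitors (GNPs) with 1 targeted allele of Ptch were compared with wild-type GNPs across every annotated gene that the arrays detected. The comparison used the 8 arrays titled as wild type or as Ptch heterozygous, 4 of each, out of 18 arrays in the series. Of 45281 probes, 9795 carried 1 gene symbol and had a mean level above 5 on the log2 scale in at least one of the 2 genotypes, and these probes stood for 7116 genes. All GNPs came from cerebella at postnatal day 6 and were enriched on a percoll gradient and by pre-plating before RNA was extracted. Both groups are labelled as C57Bl/6. The Ptch allele is carried in the germline, so it is present in every cell type of the preparation and not in GNPs alone. Another 8 GNP arrays, 4 of NdpKO mice (no Ndp, the X-linked gene for the ligand Norrin; labelled as mixed strain) and 4 of NdpKO;Ptch+/- mice, shared the estimate of the spread and served as a separate set in which Ptch was also heterozygous. By the study's account those Ndp-null mice were males and control mice could be of either sex.

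The sonic hedgehog pathway drives GNPs to divide in the outer layer of the young cerebellum. Its receptor, patched 1 (gene Ptch1, called Ptch in the mouse names), holds the signalling protein smoothened in check until hedgehog ligand binds, and the GLI transcription factors then switch on target genes that include Ptch1 itself. Mice with one working Ptch allele are a long-used model of medulloblastoma, a tumour that arises from GNPs, and most of their GNPs do not become tumours.

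Differences are given as Ptch+/- minus wild type on the log2 scale, with the standard error from limma and n = 4 arrays per genotype. A probe was called when its limma p-value, adjusted by the Benjamini-Hochberg method over all 45281 probes, was below 0.05. Each call was repeated with each of the 8 arrays left out in turn, and the number of these 8 fits in which a call held is given beside it. Where one genotype lay below level 5 the fold is a lower bound set against that level. Several markers of GNPs were detected. Zic1, a transcription factor of cerebellar granule cells, averaged 12.81 in wild-type and 13.01 in Ptch+/- GNPs. Markers of other cells were as bright. Mbp of oligodendrocytes averaged 12.88 and 12.41, and the haemoglobin gene Hbb-bt 13.10 and 13.04. The GNP genes Barhl1, Neurod1, Insm1 and Sox11 were all above level 5. The probes for Atoh1 and Pax6, which also define GNPs, were below it in both genotypes. One array, Ptch+/- replicate 3, had a high Xist level (10.02) and a low level of the Y-linked gene Eif2s3y (4.11), while the other 7 arrays had the reverse. Between 23.3% and 23.9% of probes reached level 5 on each of the 8 arrays, and array medians were equal.

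Ptch1 fell and the signal of the Prm1 probes rose in Ptch+/- GNPs. Ptch1 levels were 8.56, 8.70, 8.64 and 8.63 on the wild-type arrays and 7.94, 7.86, 7.88 and 7.63 on the Ptch+/- arrays. The groups did not overlap, and every Ptch+/- array lay below every wild-type array (-0.80 ± 0.10, 1.74-fold lower, limma adjusted p = 0.0040; held in 8 of 8 fits). Prm1, which encodes the sperm chromatin protein protamine 1, read 4.12, 4.13, 4.12 and 4.11 in wild-type GNPs and 10.37, 10.51, 10.13 and 10.51 in Ptch+/- GNPs. It was at background on every wild-type array and at least 41.6-fold higher with the Ptch allele (adjusted p = 1.5e-10), and its second probe gave at least 37.1-fold (adjusted p = 3.3e-11). Whether these probes read the native Prm1 transcript was not tested. Among the 25 protein-coding genes on each side of Ptch1, 4 had a probe above level 5 (Ercc6l2, Zfp367, Cdk20 and Zfp369) and 0 were called at their brightest probe. Cdk20, which encodes a kinase of primary cilia, read 0.19 there and was called lower at its second probe (-0.94, adjusted p = 0.027). Zfp367 read -1.24 with no overlap between the groups (adjusted p = 0.17).

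The rest of the hedgehog pathway held few calls. Of 20 measured members 9 lay above level 5, with 2 called higher, 1 lower (Ptch1) and a median difference of 0.23, against 0.02 over all 7114 genes read with their brightest probe, of which 4.12% were called (2.18% higher and 1.94% lower). Counts of list members rest on that brightest probe, and calls at dimmer probes are named beside them. Members that reached level 5 in wild-type or in Ptch+/- GNPs alone entered through that genotype, which fixed the direction of their difference. Ccnd2, which encodes the G1 cyclin D2 that drives GNP division, was at 11.89, 12.02, 12.06 and 12.05 in wild-type GNPs and at 12.60, 12.60, 12.41 and 12.50 in Ptch+/- GNPs. All Ptch+/- arrays lay above all wild-type arrays (0.52 ± 0.08, 1.44-fold, adjusted p = 0.014; held in 8 of 8 fits). Its probes differed in direction: a second bright probe read 0.53 (adjusted p = 0.076), and the third and dimmest read -0.63 (adjusted p = 0.068). Sufu, the inhibitor that holds GLI proteins in the cytoplasm, was at 5.01, 4.97, 6.13 and 4.38 in wild-type and at 6.68, 6.40, 6.46 and 7.16 in Ptch+/- GNPs. It was higher in Ptch+/- GNPs (1.56 ± 0.33, adjusted p = 0.046), close to the threshold and held in 1 of 8 fits. Gli2, an activating GLI factor, did not pass the test (0.61 ± 0.20, adjusted p = 0.17), although its levels of 10.72 to 10.94 in Ptch+/- GNPs did not overlap the 10.11 to 10.28 of wild-type GNPs. Ccnd1, which encodes cyclin D1, read 0.43 (adjusted p = 0.32), Gli3 read -0.18 and Smo 0.05. The probes of the target genes Gli1 and Mycn stayed at background on all 8 arrays, so those genes could not be compared.

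**Figure D1:**
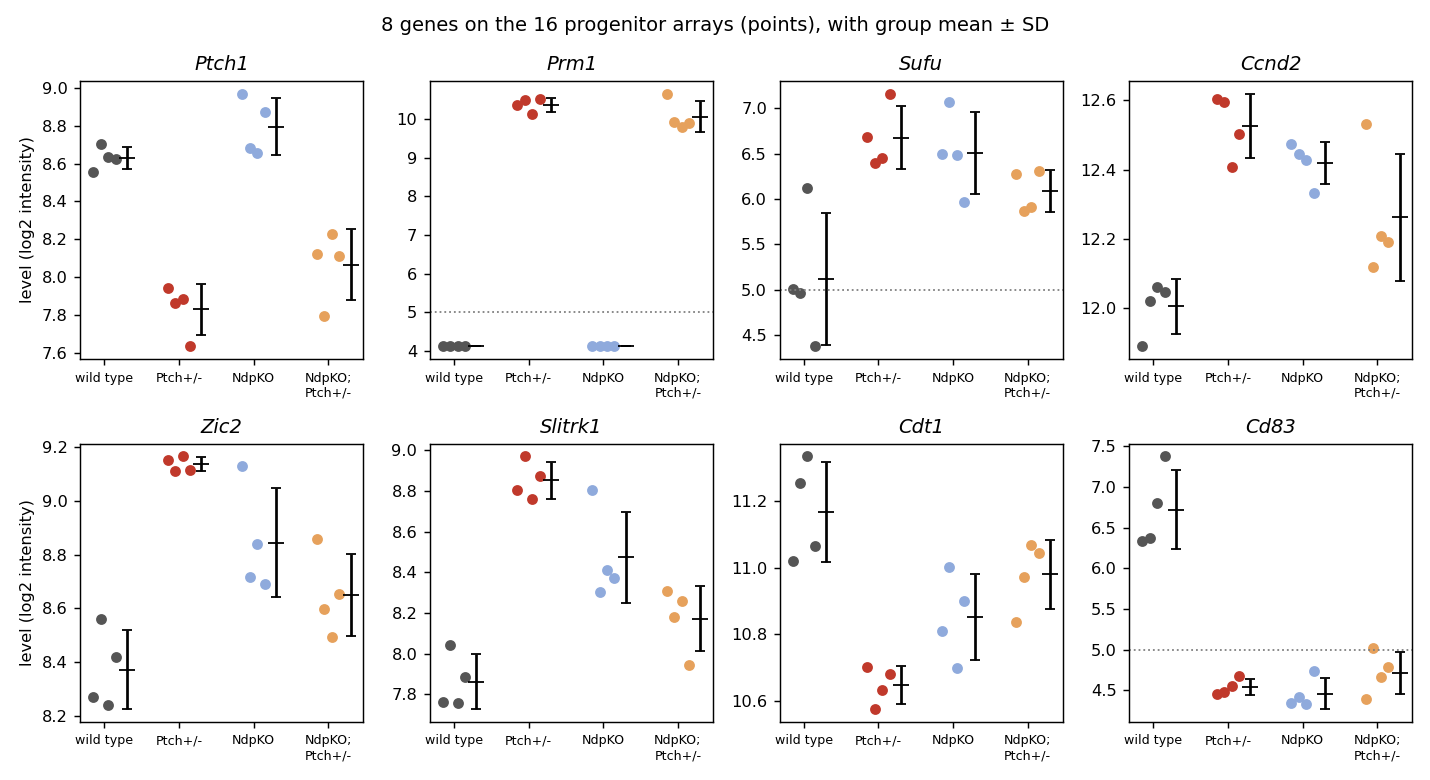
Log2 levels of Ptch1, Prm1, Sufu, Ccnd2, Zic2, Slitrk1, Cdt1 and Cd83 on each GNP array, by genotype; points are arrays and bars are the mean ± SD of 4 arrays, with a dotted line at level 5 where a value lies below it. Ptch1 is lower and Prm1 higher with the Ptch allele in both Ndp backgrounds, while for the other 6 genes wild type has the lowest or the highest mean of the 4 genotypes.

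Across the detected transcriptome 375 of 9795 annotated probes (3.83%) were called, for 354 genes. Of these, 204 probes (2.08%) were higher and 171 (1.75%) lower in Ptch+/- GNPs, and no gene was called in both directions. Of all 45281 probes 494 (1.09%) were called, the others being dim or without 1 symbol. Changes were mostly small: the median called difference was 0.67 for higher and -0.81 for lower probes, and 53 higher and 58 lower probes reached 1 on the log2 scale. The groups did not overlap at any of the 375 called probes, and they did not overlap at 22.8% of all 9795. The number of calls moved with the arrays used. Leaving out Ptch+/- replicate 1 gave 87 calls, replicate 2 gave 91, replicate 3 gave 120 and replicate 4 gave 167. Leaving out wild-type replicate 1 gave 144, replicate 2 gave 134, replicate 3 gave 141 and replicate 4 gave 342. The number was 573 without NdpKO replicate 4 and 611 without NdpKO;Ptch+/- replicate 1, arrays that enter only through the spread.

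**Figure D2:**
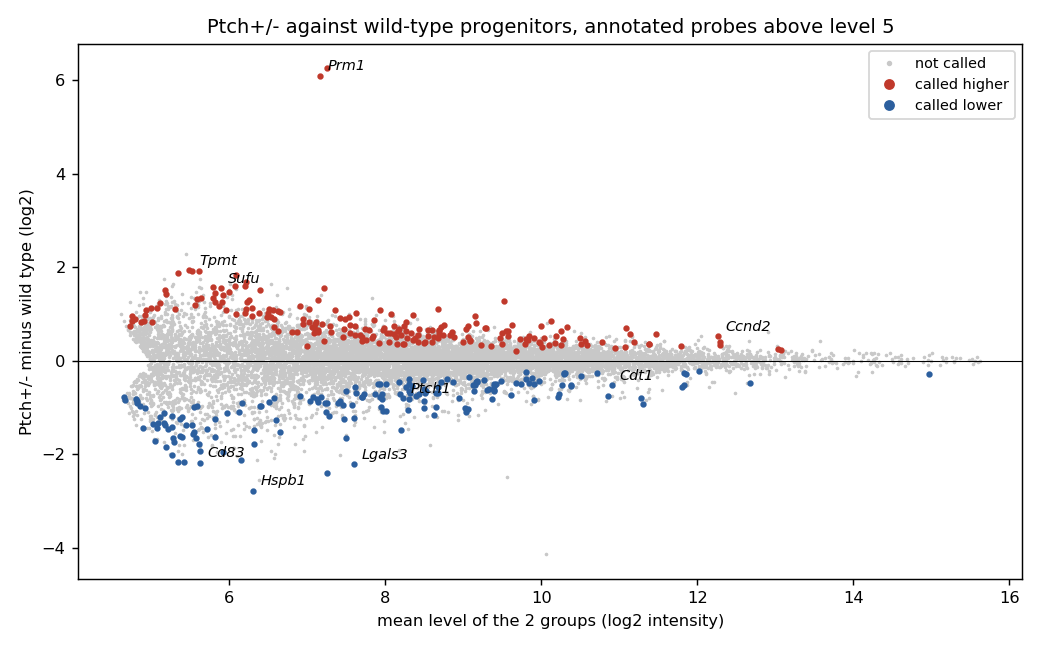
Difference between Ptch+/- and wild-type GNPs (log2, vertical axis) against the mean log2 level over the 8 arrays (horizontal axis) for the 9795 annotated probes above level 5; called probes are red where higher and blue where lower. The 204 higher and 171 lower calls are spread over the range of levels, and the 2 probes of Prm1 alone lie far above the rest.

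Genes of granule cells and neurons made up a small part of the calls, and in the lists of such genes every call was higher in Ptch+/- GNPs. Among 15 GNP transcription factors above level 5, 3 rose and 0 fell. Zic2, a zinc finger factor of dividing granule cell precursors, was at 8.27, 8.56, 8.24 and 8.42 in wild-type GNPs and at 9.15, 9.11, 9.16 and 9.12 in Ptch+/- GNPs. The groups were clearly apart (0.76 ± 0.10, 1.70-fold, adjusted p = 0.0071; held in 8 of 8 fits). Its relative Zic4 rose by 0.54 ± 0.10 (adjusted p = 0.025, held in 3 of 8) and was called at 2 of its 4 probes above level 5, one of the others reading 0.06. Nfia, a nuclear factor I protein needed for granule cell maturation, rose by 0.46 ± 0.07 (adjusted p = 0.017, held in 6 of 8). Zic1 (0.19), Sox11 (0.20), Nfib (-0.09) and Neurod1 (-0.28) did not pass the test.

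Of 20 granule neuron differentiation genes above level 5, 3 rose and 0 fell, and the median was 0.29. Kcnd2, which encodes the A-type potassium channel Kv4.2, was at 8.87, 8.86, 8.97 and 9.06 in wild-type and at 9.61, 9.74, 9.62 and 9.63 in Ptch+/- GNPs, with no overlap (0.71 ± 0.09, 1.63-fold, adjusted p = 0.0066; held in 8 of 8). Grin2b, an NMDA receptor subunit, rose from 6.17 to 6.44 in wild type to 7.28 to 7.74 (1.18 ± 0.22, adjusted p = 0.029, held in 2 of 8). Cntn2, the adhesion protein TAG-1 of newly postmitotic granule cells, rose by 0.37 ± 0.06 (adjusted p = 0.023, held in 2 of 8). The vesicular glutamate transporter gene Slc17a7 read 1.36 and the migration gene Dcx 0.43, and neither passed the test (adjusted p = 0.10 and 0.29). Rbfox3, which encodes the neuronal marker NeuN, read 0.09 (adjusted p = 0.57).

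Other neuronal lists held few calls. Of 23 neuronal RNA-binding proteins 21 read above 0 and the median was 0.30, while 52.5% of all genes read above 0. Srrm4, Nova1 and Ptbp2 among the 21 entered the list through Ptch+/- GNPs alone. The 2 called were Cpeb3 (1.58 ± 0.30, adjusted p = 0.031), a regulator of synaptic mRNA translation, and the splicing factor Celf4 (0.63 ± 0.13, adjusted p = 0.048), which held in 2 and 0 of 8 fits, and Celf2 was called at a dimmer probe (0.88) and read -0.03 at the brightest. Of 20 synaptic genes 19 read above 0 with a median of 0.27 and 0 were called, although Syn1, the synapsin I gene, was called at a dimmer probe (0.51). Syp, which encodes synaptophysin, read 0.30 (adjusted p = 0.14) and Syt1 0.10. The 13 ion channel and receptor genes had a median of 0.36 and 1 call, the kainate receptor gene Grik2 (0.67 ± 0.14, adjusted p = 0.048, held in 1 of 8). Scn3b and Gabbr1 of this list entered it through Ptch+/- GNPs alone, so they could only read above 0. The calcium channel subunit gene Cacna2d1 was called at a dimmer probe (0.44) and read 0.09 at the brightest. The AMPA receptor subunit gene Gria1 read the other way (-1.60, adjusted p = 0.12), with no overlap between the groups. Among 13 axon guidance genes the ephrin receptor gene Epha3 was the 1 called (0.83 ± 0.15, adjusted p = 0.023; held in 4 of 8). Of 24 neuronal cytoskeleton genes 2 rose, the microtubule stabiliser Map6 at 2 of its 3 probes (0.95 ± 0.20 at the brightest, and 0.20 at the probe not called) and the growth cone protein gene Marcks (0.26 ± 0.05). Tubb2b, the brightest tubulin gene of the list, read 0.05.

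Markers of several other cell types read lower on the same Ptch+/- arrays. The mean level of 18 astrocyte and Bergmann glia genes was 8.57 to 9.09 on wild-type arrays and 8.03 to 8.28 on Ptch+/- arrays. For 9 microglia and leukocyte genes it was 6.99 to 8.02 and 5.53 to 6.51, and for 19 endothelial genes 8.13 to 9.32 and 7.22 to 7.91. No array of one genotype reached the range of the other in these 3 lists. The microglial means include Cd83, Tlr2 and Gpnmb, which entered that list through wild type alone. The groups overlapped in the list of 11 oligodendrocyte genes, where wild-type replicate 3 lay below the 9.45 to 9.94 of the Ptch+/- arrays and the other wild-type arrays at 9.60 to 10.60. They overlapped too in the lists of 9 mural and meningeal genes (8.65 to 9.28 against 8.71 to 8.83) and of 10 Purkinje cell and GABAergic interneuron genes (8.12 to 8.97 against 7.68 to 8.52). In the last of these, where Sst and Gad2 entered through wild type alone, 0 were called, and the GABA transporter gene Slc32a1 read -0.60. The part of this shift in the higher levels of neuronal genes was not tested, and in these bulk preparations fewer cells of a type and less RNA per cell cannot be told apart.

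**Figure D3:**
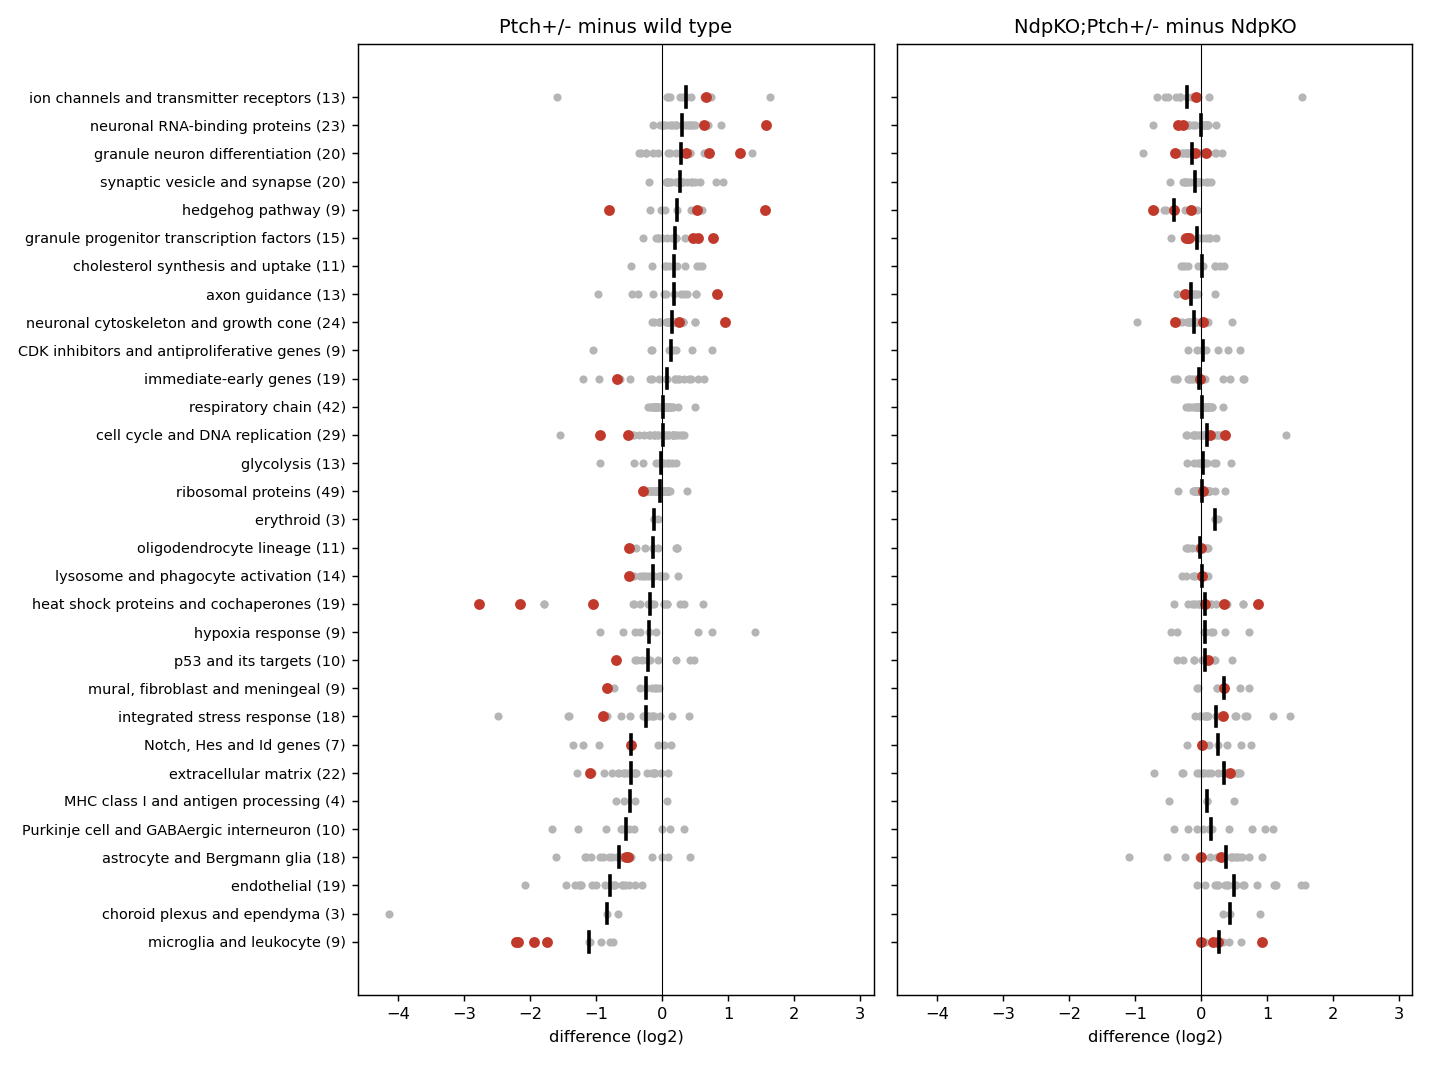
Differences of the members of each gene list above level 5 (log2), Ptch+/- minus wild type on the left and NdpKO;Ptch+/- minus NdpKO on the right; grey points are genes, red points are called genes and black bars are list medians. On the left the medians run from -1.11 for microglia to 0.36 for ion channels, and on the right the same lists read 0.27 and -0.21.

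Glial genes fell in part. Of 18 astrocyte genes above level 5, 16 read below 0, 2 were called lower and 0 higher, and the median was -0.65 against 0.02 over all genes. Sox9, a transcription factor of glia and neural stem cells, fell at both of its probes. Its bright probe read 12.16, 11.97, 12.03 and 12.19 in wild-type and 11.45, 11.58, 11.57 and 11.54 in Ptch+/- GNPs (-0.55 ± 0.12, adjusted p = 0.048), a call that held in 0 of 8 fits. Its second probe (-0.85 ± 0.12, adjusted p = 0.011) held in all 8. Vim, the intermediate filament gene vimentin, fell by 0.52 on the log2 scale (adjusted p = 0.023, held in 5 of 8). The defining astrocyte genes Gfap (-1.16), Aldh1l1 (-1.61), Aqp4 (-0.76) and the glutamate transporter gene Slc1a3 (-0.68) did not pass the test, although in each of them the groups did not overlap. Among 7 Notch, Hes and Id genes Hey1 was the 1 called (-0.47 ± 0.10, adjusted p = 0.044; held in 0 of 8).

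All 9 microglia and leukocyte genes above level 5 read below 0 and 4 of them fell. Among them Cd83, Tlr2 and Gpnmb entered the list through wild type alone, so they could only read below 0. Cd83, a surface protein of activated microglia and dendritic cells, was at 6.33, 6.37, 6.80 and 7.38 in wild-type and at 4.45, 4.47, 4.56 and 4.68 in Ptch+/- GNPs. It lay below level 5 on every Ptch+/- array (at least 3.29-fold lower, adjusted p = 0.0012; held in 8 of 8). The innate immune receptor gene Tlr2 went from 6.15, 5.59, 6.28 and 6.62 to 4.41, 4.35, 4.46 and 4.47, again below level 5 on all Ptch+/- arrays (at least 2.23-fold, adjusted p = 0.0018; held in 8 of 8). Gpnmb (at least 3.73-fold, adjusted p = 0.023) and Lgals3, which encodes galectin-3 (-2.22 ± 0.48, adjusted p = 0.048), are genes of phagocytes and held in 5 and 0 of 8 fits. The complement genes C1qb (-1.11) and C1qc (-1.10) did not pass the test. Fcrls, also of this list, was called lower at a dimmer probe (-1.45) and read -0.75 at a brighter one without a call. Of 22 measured members 13 were below level 5 in both genotypes, among them the defining genes Cx3cr1, Ptprc, Itgam, Csf1r, Tmem119, P2ry12 and Aif1.

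All 19 endothelial genes above level 5 read below 0 with a median of -0.79, and 0 of them were called. Cldn5, the tight junction gene claudin-5, was at 12.45, 11.79, 11.06 and 11.42 in wild-type and at 11.15, 10.59, 11.29 and 11.28 in Ptch+/- GNPs. The groups overlapped there (-0.60 ± 0.29, adjusted p = 0.42). Wild-type replicate 1 was the highest of the 8 arrays for Cldn5, Egfl7, Esam and the matrix gene Sparc. Extracellular matrix genes read lower with them: 21 of 22 were below 0, the median was -0.48 and 1 was called, the glial matrix gene Tnc (-1.09 ± 0.19, adjusted p = 0.023; held in 3 of 8). Lamb2, Fbln2 and Timp1 among the 21 entered the list through wild type alone. Ttr, the transthyretin gene of choroid plexus, ranged from 8.78 to 14.15 in wild-type and from 6.59 to 11.10 in Ptch+/- GNPs (-4.14 ± 1.51, adjusted p = 0.24). The 9 mural and meningeal genes held 1 call, Pdgfra (-0.84 ± 0.17), and the 11 oligodendrocyte genes held 1, Bcas1 (-0.51 ± 0.11), each held in 0 of 8 fits. Haemoglobin genes did not pass the test (-0.06 to -0.13).

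Cell cycle genes went both ways. Of 29 above level 5, 15 read above and 14 below 0, with a median of 0.01. The list mean was 9.66 to 9.73 on wild-type and 9.54 to 9.63 on Ptch+/- arrays. That mean includes the cyclin gene Ccne2 (6.09 in wild-type and 4.54 in Ptch+/- GNPs). Ccne2 entered the list through wild type alone, so it could only read below 0. The 2 called were both factors that load the replicative helicase onto origins. Cdt1 was at 11.02, 11.25, 11.33 and 11.06 in wild-type and at 10.70, 10.58, 10.63 and 10.68 in Ptch+/- GNPs. Every Ptch+/- array lay lower (-0.52 ± 0.08, 1.43-fold, adjusted p = 0.015; held in 8 of 8). Its loading partner gene Cdc6 read 7.89, 8.30, 8.26 and 7.75 against 7.12, 6.87, 7.11 and 7.30 (-0.95 ± 0.19, adjusted p = 0.037; held in 1 of 8). The helicase genes themselves read 0.01 to 0.27 (Mcm2 to Mcm7) and Pcna -0.19, none called. Groups did not overlap, without a call, for the mitotic kinase genes Cdk1 (-0.35), Aurka (-0.45) and Aurkb (-0.43) and for Ccne2 (-1.55, adjusted p = 0.21). The same held for members that read higher: Bub1b (0.33), E2f1 (0.30), Mcm2 (0.23) and Mcm4 (0.21). Of all 9795 probes 22.8% had groups that did not overlap. Top2a, the topoisomerase gene of dividing cells, read 0.16 at its brightest probe and was called lower at a dimmer one (-0.85, adjusted p = 0.045). Plk4, the kinase that starts centriole duplication, fell from 6.92, 7.20, 6.59 and 5.83 to 5.20, 4.85, 5.14 and 4.82 (-1.63 ± 0.27, adjusted p = 0.019; held in 6 of 8). Of 9 genes of cyclin-dependent kinase inhibitors and antiproliferative proteins 0 were called at the brightest probe. Cdkn1a, which encodes the inhibitor p21, read -1.05 with no overlap (adjusted p = 0.062), Cdkn1c -0.16 and the retinoblastoma gene Rb1 0.46, with Rb1 called higher at a dimmer probe (0.61, adjusted p = 0.043). Of 10 p53 genes and targets the p53 ubiquitin ligase gene Mdm2 was the 1 called (-0.70 ± 0.12, adjusted p = 0.020; held in 5 of 8).

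Some heat shock genes fell in Ptch+/- GNPs and most members of the list were not called. Of 19 members above level 5 the brightest probe of 3 was called lower and of 0 higher, and the list median was -0.18. Over all genes 1.94% were called lower. The called members were Hspb1, Hspa1b and Bag3. Among them Hspb1 and Hspa1b entered the list through wild type alone, so they could only read below 0. Hspb1 encodes the small heat shock protein HSP27, Hspa1a and Hspa1b the inducible HSP70 proteins, and Bag3 a cochaperone that binds HSP70. The promoters of Hspb1 and Hspa1a are shown because Hspb1 had the largest fall of the list and Hspa1a a call that held in 8 of 8 fits. They are the RefSeq windows of build GRCm38.p6 from 250 bases before the gene start up to the start, 5′ to 3′ on the gene's strand. Capitals mark matches to the heat shock element letters GAANNTTC, searched on both strands together with TTCNNGAA, and each motif is its own reverse complement.
Hspb1, chr5:135887669-135887918, + strand: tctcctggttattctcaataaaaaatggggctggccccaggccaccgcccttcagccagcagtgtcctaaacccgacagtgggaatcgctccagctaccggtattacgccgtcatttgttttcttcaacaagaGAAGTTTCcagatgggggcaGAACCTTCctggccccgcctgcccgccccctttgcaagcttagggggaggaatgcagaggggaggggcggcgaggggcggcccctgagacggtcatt
Hspa1a, chr17:34972157-34972406, - strand: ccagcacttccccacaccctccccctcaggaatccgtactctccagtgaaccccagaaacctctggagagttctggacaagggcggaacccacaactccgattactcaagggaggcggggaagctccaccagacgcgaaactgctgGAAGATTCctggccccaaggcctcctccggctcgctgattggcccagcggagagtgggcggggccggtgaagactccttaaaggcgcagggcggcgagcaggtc

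Either motif was present in the 300-base windows (50 bases after the start included) of 17% of all 27025 genes and of 11 of the 22 heat shock list genes with a window (50%). List genes that were not called had matches too: Chordc1 5, Hsph1 3, Hspd1 3 and Hspe1 3, while Stip1 and Dnajb1 had 0. Hspb1 had 2, and Hspa1a, Hspa1b and Bag3 had 1 each. The windows of Hspa1a and Hspa1b were equal at 296 of 300 bases. These matches describe the letters and were not tested as sites. Probes for the near-identical Hspa1a and Hspa1b transcripts may share signal.

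Hspb1 was at 8.34, 7.23, 7.56 and 7.67 in wild-type and at 4.84, 4.73, 4.81 and 5.29 in Ptch+/- GNPs. The drop was at least 6.49-fold (adjusted p = 0.030), with no overlap, yet the call held in 0 of 8 fits (adjusted p 0.052 to 0.087). Hspa1a read 7.16, 6.62, 5.55 and 6.68 against 4.26, 4.26, 4.45 and 4.35 at the probe that was called (at least 2.84-fold, adjusted p = 0.0027; held in 8 of 8). Its brighter probe read 9.93, 9.57, 8.96 and 9.44 against 7.47, 7.45, 7.96 and 7.86 and did not pass the test (-1.79 ± 0.42, adjusted p = 0.065). Both probes were lower on every Ptch+/- array. Bag3 was at 9.05, 8.79, 8.68 and 8.72 in wild-type and at 7.48, 7.75, 7.90 and 7.94 in Ptch+/- GNPs (-1.04 ± 0.16, 2.06-fold, adjusted p = 0.016; held in 7 of 8). Hspa1b was lower by at least 2.68-fold (adjusted p = 0.035; held in 1 of 8). Hspb8, a small heat shock protein gene that works with Bag3, read -1.79 and missed the threshold (adjusted p = 0.053). Other chaperone genes did not pass the test, among them Hsph1 (0.07), Stip1 (0.32), Chordc1 (0.26), Hspa8 (0.03), Hsp90aa1 (-0.16), Dnajb1 (-0.34) and Hspe1 (-0.42).

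Further stress genes fell singly. In the integrated stress response, which slows translation and induces ATF4 targets, 16 of 18 genes read below 0 with a median of -0.25, and the 1 called was the transcription factor gene Cebpb (-0.90 ± 0.17, adjusted p = 0.030; held in 1 of 8). Atf4 itself read -0.15, Ddit3 -0.27 and Chac1 -2.49 (adjusted p = 0.17). Of 19 immediate-early genes Atf3 was the 1 called (-0.69 ± 0.14, adjusted p = 0.035; held in 1 of 8), and Egr1 read 0.44 (adjusted p = 0.41). In genes of core metabolism little was called: 0 of 13 glycolysis genes, 0 of 42 respiratory chain genes, 0 of 11 cholesterol genes, 0 of 9 hypoxia genes and 1 of 49 ribosomal protein genes, Rpl23 (-0.29 ± 0.05, adjusted p = 0.030; held in 1 of 8), whose dimmer probes read -0.03 and 0.25. Their medians lay between -0.19 and 0.18. Hif1an, which encodes the asparaginyl hydroxylase FIH that restrains hypoxia-inducible factor and which was named after its values were seen, fell from 7.57, 7.15, 7.12 and 7.30 to 6.60, 6.49, 6.52 and 6.52 (-0.75 ± 0.09, adjusted p = 0.0043; held in 8 of 8).

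The largest rises between measured levels, chosen by size, were mostly at dim probes near the threshold of the test. After Ankrd12, a cofactor of nuclear receptors (1.83 ± 0.38, adjusted p = 0.040; held in 1 of 8), came Smco4 (1.68 ± 0.23), which held in 8 of 8 fits. The brighter probe of Ankrd12 was called too and read 1.01. The other genes so chosen were Aplp2, Chtf8, Cpeb3, Sufu, Usp29, Clvs1, Chrnb2, Jph4, Ankhd1, Lrpprc, Hdlbp, Adamts18 and Arpp21, from 1.61 down to 1.28, with adjusted p between 0.020 and 0.048 and with calls that held in 1 to 4 fits. Chrnb2, a nicotinic acetylcholine receptor subunit, was at 4.86, 5.61, 5.27 and 5.33 in wild-type and at 6.69, 6.76, 6.76 and 6.72 in Ptch+/- GNPs. Jph4, the neuronal junctophilin that ties the endoplasmic reticulum to the cell membrane, read 5.18, 5.50, 4.74 and 4.96 against 6.58, 6.89, 6.42 and 6.30. Both were apart between genotypes by more than their spread (1.47 ± 0.24 and 1.46 ± 0.27). Arpp21, an RNA-binding phosphoprotein of neurons, was at 8.44 to 9.48 against 9.83 to 10.50. For 6 of these genes a brighter probe was not called and read less: Chrnb2 0.81, Clvs1 0.79, Chtf8 0.65, Arpp21 0.51, Hdlbp 0.06 and Aplp2 -0.02.

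Among genes below level 5 in wild-type GNPs, Scrt2, Tpmt, Wdr82, Ilrun, Map6, Hps4 and Baiap2 followed Prm1 with bounds of 2.99-fold down to 2.23-fold. Scrt2, a zinc finger repressor made by newly postmitotic neurons, read 4.51, 4.86, 4.76 and 4.50 against 6.66, 6.58, 6.25 and 6.82, with every Ptch+/- array above level 5 (adjusted p = 0.0027; held in 8 of 8). The calls for Tpmt, Wdr82 and Ilrun held in 8 of 8 too, yet brighter probes of these genes read only 0.78, 0.14 and 0.08. Hps4 and Baiap2 held in 2 and 1 of 8.

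The largest falls between measured levels included genes of several kinds. Zfp87, Lgals3 and Odf3b read -2.39, -2.22 and -2.12, and held in 0, 0 and 1 of 8 fits. Serpina3n, a serine protease inhibitor made by reactive astrocytes, was at 8.15, 7.28, 6.57 and 6.80 in wild-type and at 5.15, 5.48, 5.47 and 5.61 in Ptch+/- GNPs (-1.77 ± 0.30, 3.41-fold, adjusted p = 0.021; held in 4 of 8). Per2, a core repressor of the circadian clock, went from 8.07, 8.16, 8.49 and 8.56 to 6.60, 6.53, 6.96 and 6.58 (-1.65 ± 0.29, 3.14-fold, adjusted p = 0.023; held in 3 of 8). Its second probe read -1.99 (adjusted p = 0.052). Ecrg4, which encodes the secreted peptide precursor augurin, was at 9.23, 9.34, 8.71 and 8.47 against 7.62, 7.23, 7.66 and 7.33 (-1.48 ± 0.24, adjusted p = 0.017; held in 7 of 8). In each of these 3 genes all Ptch+/- arrays lay below all wild-type arrays.

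Rgcc, a regulator of the cell cycle that responds to complement, was the one of these falls held in 8 of 8 fits, at 9.33, 9.12, 9.15 and 9.20 against 7.98, 7.94, 8.21 and 8.04 (-1.15 ± 0.16, 2.23-fold, adjusted p = 0.0097). Ccn2, which encodes connective tissue growth factor, fell by 1.51 on the log2 scale (-1.18 at a brighter probe, adjusted p = 0.097) and the BMP antagonist gene Nbl1 fell by 1.27, each held in 2 of 8. Smpdl3a, Atpif1, Tut1, Cars and Frmd6 read -1.47 to -1.19 with adjusted p from 0.028 to 0.047, and a brighter Atpif1 probe read 0.16. Below level 5 in Ptch+/- GNPs, Got1l1, Sdc4 (the heparan sulphate proteoglycan syndecan-4) and Slc16a6 were lower by bounds of 3.03-fold, 2.83-fold and 2.73-fold, with calls that held in 1, 1 and 0 of 8 fits.

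**Figure D4:**
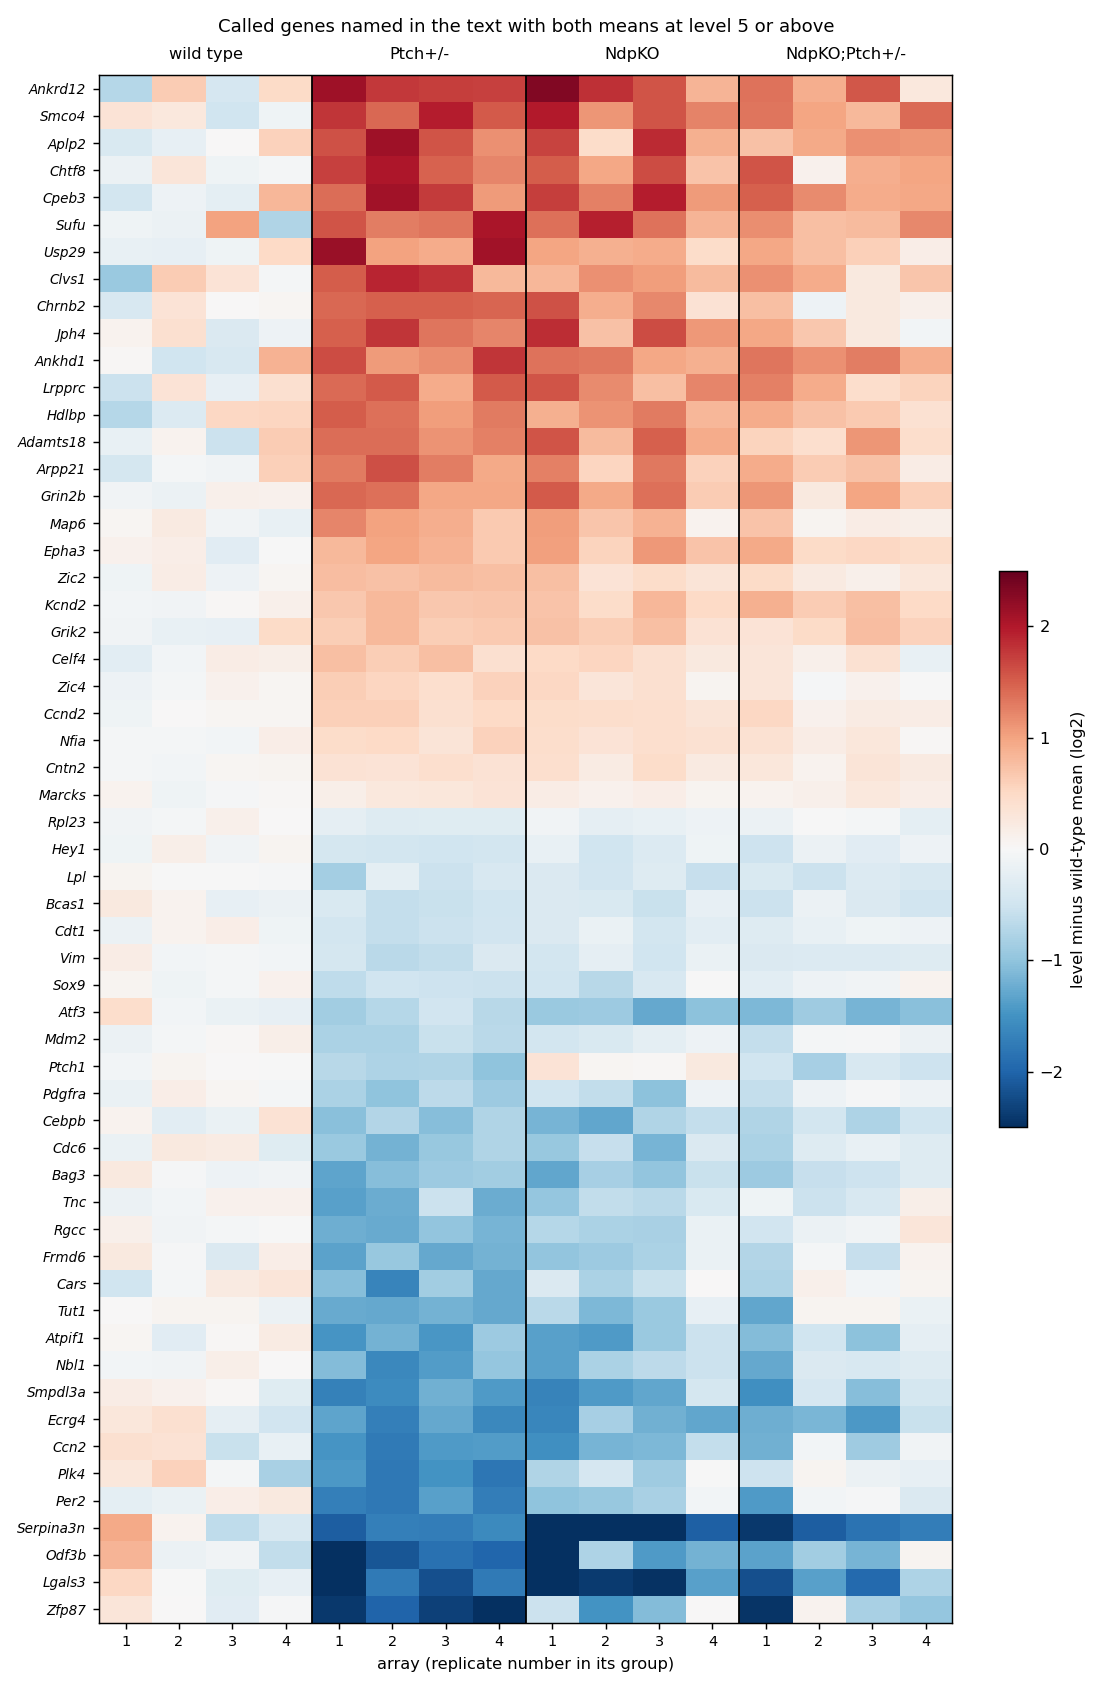
Log2 level minus the wild-type mean for 57 called genes (rows) on the 16 GNP arrays (columns, 4 per genotype). Rows move away from wild type on all Ptch+/- arrays, and for most rows the NdpKO and NdpKO;Ptch+/- means lie on the same side of wild type as Ptch+/-.

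Calls that held in all 8 fits numbered 63 probes for 60 genes, 38 higher and 25 lower, and 42 of them had both genotypes at or above level 5. A further 64 called probes held in none of the 8, and the median was 2 of 8. The genes named in this and the next paragraph were chosen after their values were seen. The stable rises included neuronal genes. Slitrk1, a synaptic adhesion protein that promotes neurite growth, was at 7.76, 8.04, 7.76 and 7.89 in wild-type and at 8.80, 8.97, 8.76 and 8.87 in Ptch+/- GNPs (0.99 ± 0.11, 1.98-fold, adjusted p = 0.0026). Cdk5r1, which encodes p35, the activator of the neuronal kinase CDK5, read 11.97, 12.02, 12.18 and 12.19 against 12.46, 12.54, 12.53 and 12.47 (0.41 ± 0.05, adjusted p = 0.0037). Both genes were higher on every Ptch+/- array. Several others encode transcription and chromatin factors: the repressor gene Zbtb18 rose at 2 of 4 probes (1.11 ± 0.15 and 0.70 ± 0.10, and 0.43 at the brightest), Zfpm2 by 0.85, Zhx3 by 1.05, Hivep3 by 0.67, Mef2b by 0.64, Msl2 of the MSL histone acetyltransferase complex by 1.03, the arginine methyltransferase gene Carm1 by 1.00 and the histone demethylase gene Phf2 by 0.40. Map2k6, the kinase upstream of p38, was called at 3 probes (0.76 to 0.89). The cullin adaptor gene Klhl9 read 6.82, 6.78, 7.02 and 7.05 against 7.69, 7.66, 7.73 and 7.60 (0.75 ± 0.07, adjusted p = 0.0013).

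Among the stable falls, Cd44, the hyaluronan receptor gene of glial precursors and immune cells, went from 5.88, 5.68, 5.50 and 5.96 to 4.48, 4.35, 4.47 and 4.40, below level 5 on every Ptch+/- array (at least 1.69-fold, adjusted p = 1.1e-04). Sox21, a SOX factor of neural precursors, was at 8.60, 8.22, 8.49 and 8.47 against 7.37, 7.36, 7.43 and 7.66 (-0.99 ± 0.15, adjusted p = 0.014). Both genes were apart between genotypes on all arrays. Others were the AMPK-related kinase gene Nuak2 (-0.82), the phagocyte metal transporter gene Slc11a1 (-0.65), the DNA repair demethylase gene Alkbh3 (-0.50 and -1.11 at 2 probes), the choline kinase gene Chkb (-0.48 and -0.49) and the filamin gene Flnc (-0.84). Over all calls 20 genes were called at 2 or more probes. Besides those named, Lmna, which encodes the nuclear lamins A and C, fell at 2 of 4 probes (the dimmer of these at -1.08) and read -1.28 and -1.83 at the others without a call, Rab34, a GTPase of ciliogenesis, fell at both of its probes (-0.65 and -0.60), and Apaf1, the core of the apoptosome, rose at both (0.59 and 0.65). Of 144 called genes with a further probe above level 5, all further probes had the sign of the call in 125.

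The same Ptch allele was compared in mice without Ndp, NdpKO;Ptch+/- minus NdpKO, which shares no array with the comparison above. Since NdpKO arrays are labelled as mixed strain, contrasts between the 2 comparisons by these labels hold strain as well as Ndp. The study's methods say instead that compound mutants and their controls shared a breeding cohort, to match backgrounds. Which of these holds for the arrays is not known. In that comparison 2 of 45281 probes (0.00442%) were called, both of Prm1. Ptch1 levels were 8.97, 8.68, 8.65 and 8.87 in NdpKO GNPs and 8.12, 7.80, 8.23 and 8.11 in NdpKO;Ptch+/- GNPs. The groups did not overlap, and the difference of -0.73 ± 0.10 (adjusted p = 0.078) was close in size to the -0.80 with Ndp present (difference between them 0.07 ± 0.14). Prm1 was at 4.12, 4.11, 4.12 and 4.12 without and at 10.66, 9.92, 9.79 and 9.90 with the Ptch allele. NdpKO;Ptch+/- replicate 2, whose title and genotype label disagree, was grouped by its title and had Ptch1 at 7.80 and Prm1 at 9.92.

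Other genes moved in the opposite direction more often than not. Of the 375 called probes 69 (18.4%) had the same sign in Ndp-null GNPs, against 32% of all 9795. Those called higher had a median Ndp-null difference of -0.15 and those called lower one of 0.19. Probes whose groups did not overlap in both comparisons numbered 57, and 7 of them, for 6 genes, had the same sign: Ptch1, Prm1, Hif1an (-0.75 and -0.23), Lims2 (-0.52 and -0.55), Nfic (-0.19 and -0.20) and Emc6 (0.23 and 0.16). Of these, Lims2, Nfic and Emc6 were not called in either. In Ndp-null GNPs the groups did not overlap at 2.65% of the 9795 probes. A test of the difference between the 2 Ptch effects (limma interaction) called 179 of the 9795 probes (1.83%), 151 of them among the 375, which were picked from the wild-type and Ptch+/- arrays that enter this test. It called 224 of all probes (0.495%), 28 when NdpKO;Ptch+/- replicate 2 was left out and 2 when that array was moved to the NdpKO group. The Prm1 level of that array lay within the range of arrays with the Ptch allele.

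The list medians turned as well. In Ndp-null GNPs astrocyte genes had a median of 0.38, microglial genes 0.27, endothelial genes 0.50, matrix genes 0.34 and stress response genes 0.23, where they had been below 0 in the comparison with wild type. The hedgehog list read -0.41 there with 0 of 9 genes above 0, among them Ccnd2 (-0.16), Smo (-0.70), Gli3 (-0.53) and Sufu (-0.41). Marker levels of the Ndp-null preparations moved with these values: the microglial list ranged from 5.13 to 6.09 with NdpKO alone and from 5.55 to 6.33 with the Ptch allele added, both below the 6.99 to 8.02 of wild type. Its part in the differences was not tested.

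Wild type was the extreme genotype at most calls. Its mean was the lowest of the 4 genotypes at 194 of the 204 probes called higher (95.1%) and the highest at 167 of the 171 called lower (97.7%), against 34.7% and 29.4% of all 9795 probes, shares that the choice of called probes raises by itself. Examples were Slitrk1, whose NdpKO and NdpKO;Ptch+/- means were 8.47 and 8.17, and Cd83, whose means there were 4.46 and 4.71. Slide and scan were not given in the sources used here, so batch and genotype cannot be told apart.

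**Figure D5:**
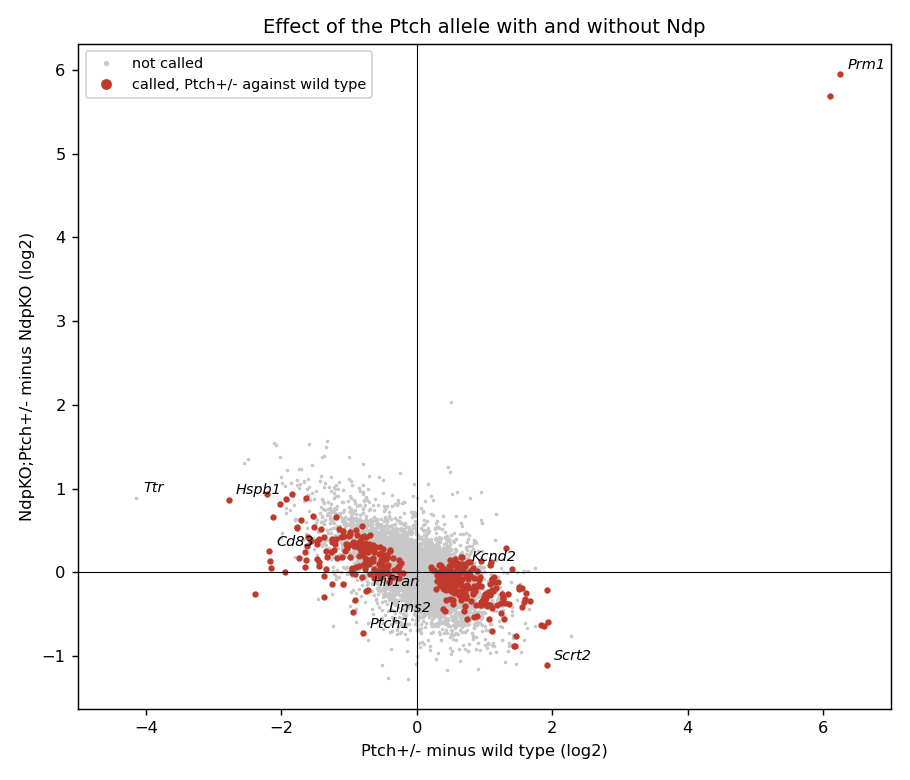
Ptch+/- minus wild type (horizontal axis) against NdpKO;Ptch+/- minus NdpKO (vertical axis), both log2, for the 9795 annotated probes above level 5, with called probes in colour. Ptch1 lies at -0.80 and -0.73 and Prm1 near 6 on both axes, while 69 of the 375 called probes have the same sign on both axes.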

How the data were processed

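Total RNA of GNPs was hybridised to Illumina MouseWG-6 BeadChips by the authors, who read the arrays with BeadStudio and applied the neqc function of limma (background correction, quantile normalization and log2 transformation). The deposited values are these log2 intensities, 1 per probe and array, for 45281 probes and 18 arrays, and were used without further transformation. Every array has the same median, so these values cannot show a change common to all genes. The study left out probes annotated as bad or unmatched for its plots, which was not done here. Illumina values carry no read depth, so the number of arrays limits the precision, and values near 4.1 are background.

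A model of 4 genotype means was fitted to the 16 GNP arrays with limma 3.58.1 in R 4.3.3 (lmFit and eBayes), and p-values were adjusted by the Benjamini-Hochberg method over all probes, with 0.05 as the threshold. The labels do not say that each array is a separate animal, so p-values measure the spread between these arrays, which may be technical. Probes were named from the platform annotation, which gave 1 symbol for 34885 probes, several for 18 and none for 10378. Probes without 1 symbol were fitted and not named. For gene lists the brightest probe stood for a gene. The text names, among called genes, the 15 largest differences in each direction with both means at or above level 5, up to 8 in each direction by bound, called list members and Ptch1 and Prm1. Others are marked as chosen after their values were seen. The members and lists were chosen with earlier results of these data known, so no list is independent evidence. Promoter sequences are from RefSeq, build GRCm38.p6, and all 4 genes looked up by symbol were matched. The fit was tested on simulated data. Alternatives covered each array left out, the replicate number as a block, the 8 arrays alone, other variance priors, array weights, centring, 1 probe per gene, filters on level and the array of disagreeing labels.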

Additional observations from a re-analysis of the deposited data

Results flagged for a closer look

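Within a group of 4 arrays, 1 array stood apart by Dixon's test for 7 named values. Chance alone passes this test in about 1 of 20 groups. There were 75 named called probes, each with a wild-type and a Ptch+/- group. About as many passes as these 7 values are therefore expected by chance alone. Among Ptch+/- arrays these were the highest Ankrd12 (7.28), Kcnd2 (9.74) and Tnc (7.25) and the lowest Ilrun (5.83). Among wild-type arrays they were the highest Usp29 (6.94), Nfia (9.74) and Vim (10.8).

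The Ptch difference itself differed between Ndp-null and Ndp-intact GNPs (limma interaction, adjusted p below 0.05) for 28 of the named genes, which were named from 8 of the 16 arrays in that test. The values are the Ndp-null difference minus the difference with Ndp, on the log2 scale. Over the whole array this test called 224 probes, 28 when NdpKO;Ptch+/- replicate 2 was left out and 2 when that array was moved to the NdpKO group. Neuronal and progenitor genes read negative: Scrt2 -3.03, Map6 -2.52, Jph4 -2.33, Chrnb2 -2.23, Grin2b -1.58, Epha3 -1.08, Zic2 -0.96, Zic4 -0.76, Ccnd2 -0.68, Nfia -0.64 and Cntn2 -0.46. So did Wdr82 -2.54, Tpmt -2.14, Smco4 -2.02, Adamts18 -1.86 and Ilrun -1.61. Stress, glial and immune genes read positive: Cd83 2.43, Hspa1a 2.31, Serpina3n 2.31, Tlr2 1.91, Tnc 1.52, Bag3 1.38, Cebpb 1.23 and Sox9 0.85. Plk4 read 1.94, Rgcc 1.67, Frmd6 1.58 and Cdt1 0.64.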

How the results depend on the processing

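No difference of a named gene with a call changed sign under the alternatives run. With the 8 arrays alone the balance of annotated calls turned, to 273 higher and 292 lower against 204 and 171. List medians were recomputed with centred arrays alone, and list means under no alternative. Called annotated probes above level 5 (375) ranged from 87 to 611 and called probes of the whole array (494) from 116 to 777 with 1 array left out, and interaction calls (224) from 26 to 1221. With the replicate number as a block they were 210, 263 and 72; numbers did not pair the arrays, since residuals of wild-type and Ptch+/- arrays of the same number correlated between -0.31 and -0.01. The 8 arrays alone gave 565 annotated calls. Fitting only annotated probes at or above level 5 gave 1378 calls, and 1343 for the interaction. Array weights gave 618, 825 and 619. Requiring a difference of at least 1 left 111 and 129. Interaction calls were 139 with a robust variance prior, 341 with 1 probe per gene, 2 with the array of disagreeing labels as NdpKO and 28 without it. The count of called probes with the same sign in Ndp-null GNPs (69) was taken over the 375 probes called in the main fit. Leaving out a wild-type or Ptch+/- array could not change it, since those arrays do not enter the Ndp-null difference. Where it could move it ranged from 58, without NdpKO;Ptch+/- replicate 1, to 100, with the array of disagreeing labels as NdpKO. It was not computed with the 8 arrays alone or with 1 probe per gene. The causes were not tested. Wild-type and Ptch+/- arrays number 4 each, so differences near the median standard error of 0.15 were not detectable at this threshold.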
